A study of Mus musculus with 17 samples.

Results

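Lungs of wild-type mice 22 h after an intravenous challenge with endotoxin were compared with lungs of wild-type mice 22 h after saline. Endotoxin is lipopolysaccharide (LPS), a component of the outer membrane of gram-negative bacteria, and here came from Escherichia coli O111:B4. The comparison used 3 LPS arrays and 4 saline arrays, 7 of the 17 arrays of the series, chosen by their labels for genotype, treatment and time. The labels number the arrays of each group as replicates, and the study gives the same group sizes for the lungs it harvested. The mice were male C57BL/6J animals of 21 to 27 g. LPS was given at 20 mg/kg in 0.1 ml of saline per 10 g of body weight, and the control mice received the same volume of saline. Whole-lung RNA was converted to labeled complementary RNA, which was fragmented and hybridized to Affymetrix MOE430A arrays. The other 10 arrays came from wild-type mice 7 h after LPS (n = 3) and from mice without inducible nitric oxide synthase (NOS2-/-) after saline at 22 h (n = 1) or LPS at 7 h and 22 h (n = 3 each). All 17 entered the fit, and 2 of those groups serve below as points of reference.

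LPS is bound by LPS-binding protein and CD14 and passed to the receptor complex of TLR4 and MD-2. The MyD88 branch of the signal activates NF-kB and induces chemokines and cytokines, and the TRIF branch induces type I interferon and, through it, antiviral genes. In the lung, neutrophils lodge in capillaries, endothelium displays adhesion molecules and loses its quiescent program, and the alveolar epithelium that makes surfactant is exposed to the same mediators.

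The arrays held lung RNA by their markers. *Sftpc*, a surfactant gene of alveolar type 2 cells, read between 14.81 and 14.88 in the saline arrays and between 14.17 and 14.36 in the LPS arrays. *Scgb1a1*, the secretoglobin gene of club cells, lay between 14.68 and 14.89 in all 7. Signals are on the log2 scale of the deposited values, in which 1 unit is a 2-fold difference. They compare 1 probe set between arrays, not different genes with each other. A whole-lung signal cannot tell fewer cells of a type from less RNA per cell.

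LPS replicate 2 stood apart from the other arrays. Over the 22626 probe sets, which are not independent of each other, LPS replicates 1 and 3 had a Pearson correlation of 0.996. Replicate 2 had 0.955 with replicate 1 and 0.949 with replicate 3. The lowest correlation between 2 saline arrays was 0.992. The SD over probe sets was 1.60 in replicate 2 and between 1.69 and 1.74 in the other 6 arrays. Replicate 2 lay more than 1 log2 unit below the mean of replicates 1 and 3 for 803 probe sets and more than 1 above it for 682. Replicates 1 and 3 differed from each other by more than 1 for 7 probe sets. Its median difference from the other pair was 0.12 for probe sets with a saline mean under 6 and 0.10 between 6 and 8. It was -0.16 between 8 and 10, -0.34 between 10 and 12 and -0.25 at 12 and above. Control probe sets for the 3' and 5' ends of Gapdh differed by 0.30 in replicate 2, within the range of 0.04 to 0.31 in the other 6 arrays. The probe set for the middle of 18S ribosomal RNA read 7.67 in replicate 2 and between 6.35 and 6.77 in the others. The part of this array's quality in the results was not tested, and values are given with and without it.

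**Figure D1:**
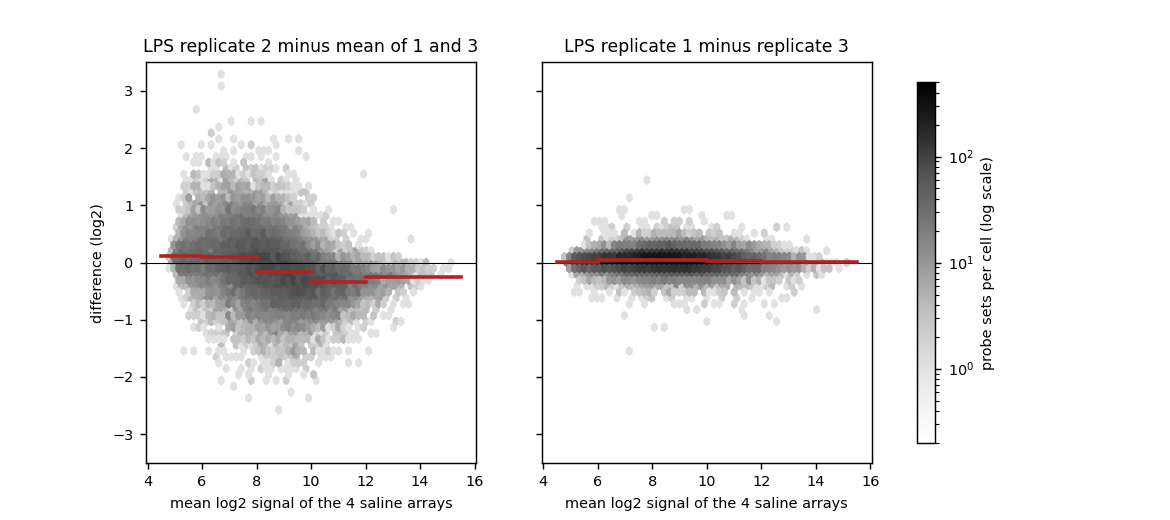
Difference in log2 signal between LPS replicate 2 and the mean of replicates 1 and 3 (left), and between replicates 1 and 3 (right), against the mean log2 signal of the 4 saline arrays, for 22626 probe sets (grey cells, number of probe sets on a log scale that is the same in both panels; red lines, medians of 5 signal ranges). Replicate 2 was lower for bright probe sets, with medians of -0.34 and -0.25 in the 2 brightest ranges, and the right panel shows the narrower spread of the other pair.

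Of the 22626 probe sets, limma called 7427 at an adjusted p under 0.05, which is 32.8%. Of these, 2895 were higher after LPS (12.8%) and 4532 lower (20.0%). Without LPS replicate 2, 9319 were called (41.2%), 4414 higher (19.5%) and 4905 lower (21.7%). Both fits called 6684 probe sets, all of them in the same direction. Without replicate 2 the count of rises was thus more than 1.5 times as high and that of falls nearly the same. A fold rule with no test, which took 3-fold or more between geometric means as a rise and 0.3-fold or less as a fall, held 287 rises (1.27%) and 160 falls (0.707%), or 343 and 129 without replicate 2. With 1 probe set for each of 12393 genes, 35.6% of genes were called, 13.1% higher and 22.6% lower. Without replicate 2 these shares were 43.3%, 19.0% and 24.3%. The LPS and saline arrays did not overlap for 31.2% of probe sets and 34.1% of genes. The median log2 fold change over these genes was -0.02, or -0.04 without replicate 2. Counts of list members below are read against those gene shares.

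Among the genes reported here, the largest rise was that of *Saa3*, a serum amyloid A gene of inflamed tissue. It read 7.51, 7.78, 7.90 and 7.72 in the saline arrays and 14.24, 14.06 and 14.36 in the LPS arrays (a log2 fold change of 6.49 with a standard error of 0.09, limma adjusted p = 3.71e-16). *Cxcl9*, an interferon-gamma-induced chemokine gene, read 7.79, 7.87, 8.12 and 7.17 after saline and 13.01, 13.06 and 13.24 after LPS (5.37, standard error 0.17). The LPS arrays of both genes lay close together, and replicate 2 did not differ from the others there by more than 0.30. *Dio2* encodes the deiodinase that activates thyroid hormone inside cells. Its saline arrays were 7.76, 7.18, 7.32 and 7.6 and its LPS arrays 12.78, 12.09 and 12.32 (4.93, standard error 0.22). *Inhbb*, the gene of an activin and inhibin subunit, went from 8.51, 8.34, 8.33 and 8.78 to 12.60, 11.97 and 12.41 (3.83, standard error 0.14). *Slfn4*, a myeloid Schlafen gene, went from 9.29, 8.47, 8.53 and 8.4 to 13.09, 12.58 and 12.90 (4.18, standard error 0.17). All 15 of the largest rises were also called without replicate 2. A call with it, and no overlap between LPS and saline arrays, were part of the rule that chose them.

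The largest fall was that of *Aplnr*, the apelin receptor gene of endothelium. Its saline arrays read 11.76, 11.52, 11.89 and 11.69 and its LPS arrays 7.96, 7.02 and 7.79 (a log2 fold change of -4.12 with a standard error of 0.20, limma adjusted p = 3.47e-10). *Ogn*, the gene of the small matrix proteoglycan osteoglycin, read 11.97, 12.15, 12.10 and 11.92 after saline and 8.43, 6.91 and 8.46 after LPS. Replicate 2 was the lowest array for both genes, and without it the log2 fold changes were -3.84 and -3.59. *Itga8*, an integrin gene of alveolar myofibroblasts, fell by 3.77 (standard error 0.18), from arrays between 10.36 and 10.84 to 6.98, 6.36 and 7.25. *Cavin2* and *Cav1* encode proteins of caveolae, the membrane pits that are dense in lung endothelium and alveolar type 1 cells. *Cavin2* fell from 12.95, 13.03, 12.98 and 12.90 to 9.38, 8.89 and 10.01, and *Cav1* from 13.45, 13.35, 13.25 and 13.48 to 10.62, 10.04 and 10.93. *Inmt*, a methyltransferase gene of lung fibroblasts, fell by 3.23 (standard error 0.15). *Abca8a*, a lipid transporter gene, fell by 3.46 (standard error 0.09), *Pcolce2*, a collagen-processing gene, by 3.24 (standard error 0.19) and *Tspan8*, a tetraspanin gene, by 2.99 (standard error 0.27). In replicate 2 *Tspan8* read 7.25, against 8.78 and 8.87 in the other LPS arrays, and its log2 fold change without that array was -2.46. *Car3*, a carbonic anhydrase gene of adipose and muscle tissue, fell by 3.58 (standard error 0.28), and here replicate 1 was the lowest, at 7.05 against 8.10 and 8.01.

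**Figure D2:**
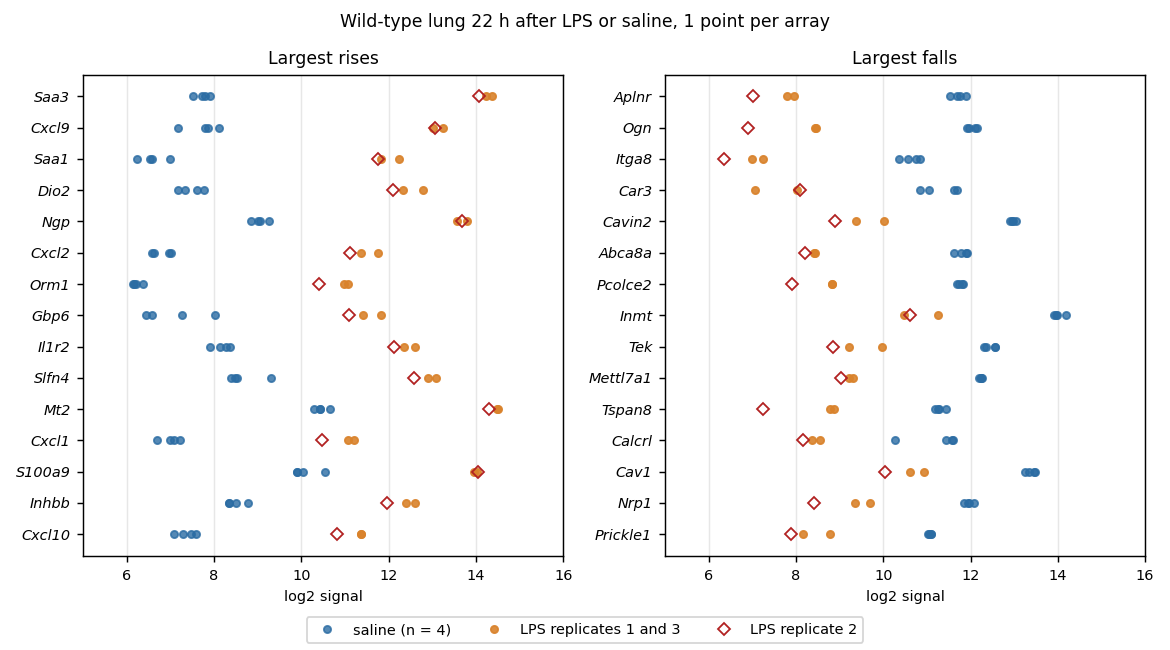
Log2 signal in each array for the 15 genes with the largest rises (left) and falls (right) among those reported, with saline arrays in blue, LPS replicates 1 and 3 in orange and LPS replicate 2 as an open diamond. The groups do not overlap for any gene, which was part of the rule that chose the genes. Replicate 2 is the lowest LPS array for *Aplnr*, *Ogn*, *Itga8*, *Cavin2* and *Tspan8*.

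In 53 lists of genes for processes and cell types, 902 of 1035 genes were measured. Acute-phase, neutrophil and interferon lists had the highest median log2 fold changes. Lists for xenobiotic enzymes, fibroblasts, endothelium and collagens had the lowest. The plot of list medians gives all 53, with and without replicate 2. These medians rest on 1 probe set per gene. With the mean over all probe sets of each gene, that of smooth muscle and pericytes went from -0.85 to -0.49. That of CXCR3 ligands and homeostatic CXC chemokines went from 1.03 to 0.67, and the acute-phase median stayed at 2.22. Some genes belong to several lists, so list counts are not independent. *Lcn2* is in the acute-phase, neutrophil and glucocorticoid lists.

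**Figure D3:**
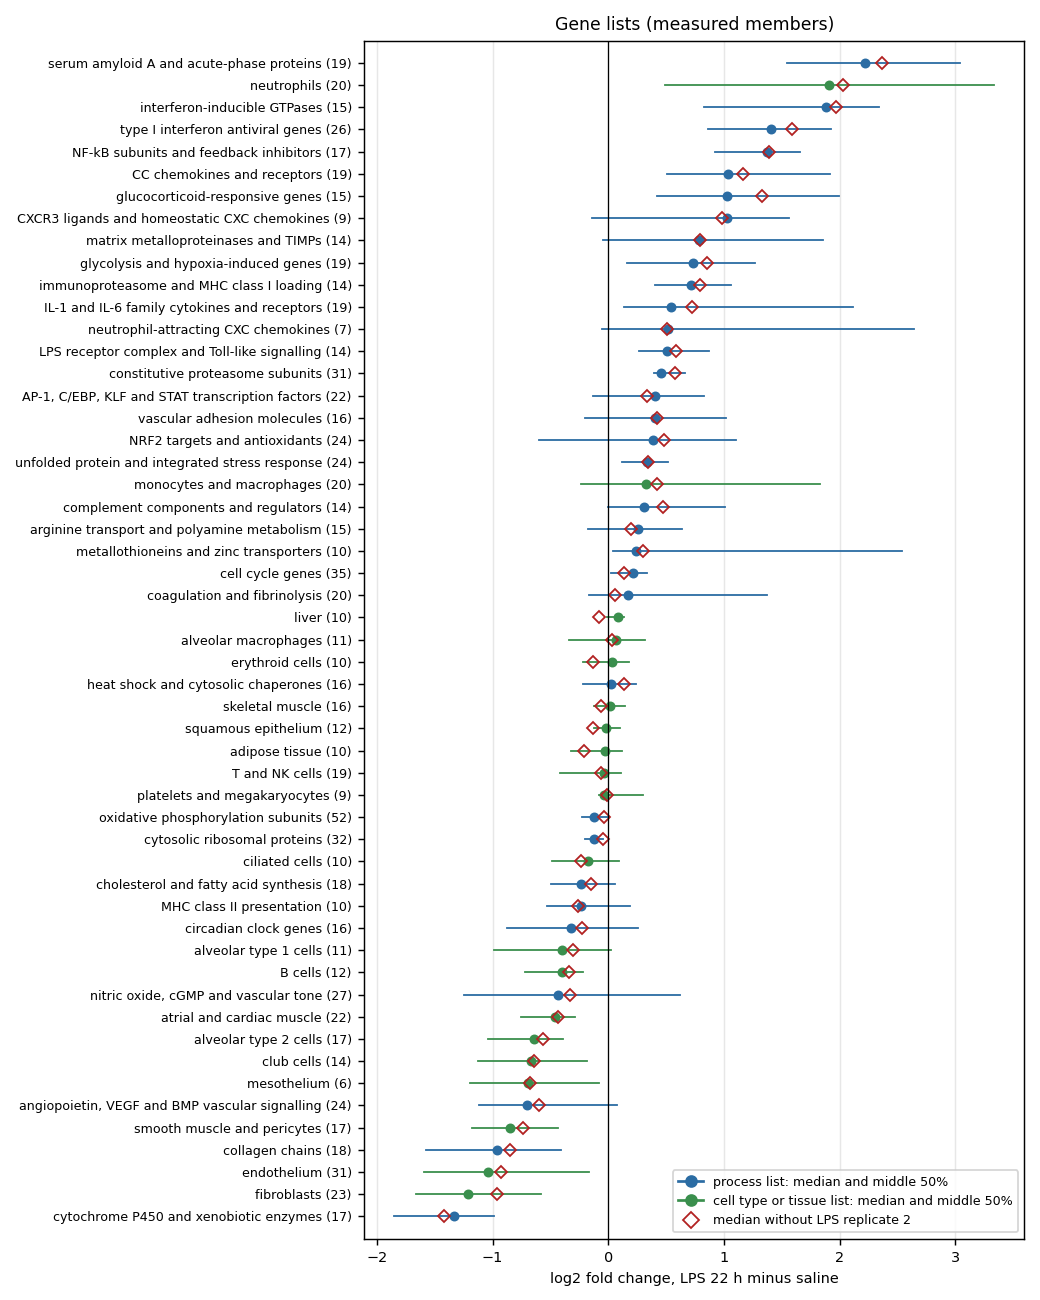
Median log2 fold change after LPS for each of 53 gene lists (number of measured members in brackets), with lines for the middle 50% of members, process lists in blue and cell type or tissue lists in green, and open diamonds for the median without LPS replicate 2. The highest median was 2.22, for serum amyloid A and acute-phase proteins, and the lowest -1.34, for cytochrome P450 and xenobiotic enzymes.

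Acute-phase proteins are made in quantity by the liver and, for some members, by inflamed tissue itself. Of 19 measured genes 16 were higher and 0 lower, with and without replicate 2, and the median log2 fold change was 2.22 against -0.02 over all genes. *Saa1* rose from 6.57, 6.24, 6.98 and 6.53 to 11.82, 11.75 and 12.24, by 5.35 (standard error 0.21). *Saa2* rose by 1.88 (standard error 0.20). These paralogs are near-identical, and probe sets may share their signal. *Orm1*, an orosomucoid gene, went from 6.15, 6.16, 6.20 and 6.37 to 10.97, 10.41 and 11.06. *Lcn2*, the gene of an iron-siderophore-binding protein, went from 10.70, 10.75, 11.07 and 10.92 to 14.24, 14.11 and 14.38. Of 10 genes in the liver list 0 were higher and 1 lower. *Alb*, the albumin gene, lay between 7.81 and 7.93 after saline and at 7.78, 8.21 and 7.87 after LPS. The source of the acute-phase RNA was not tested. Some metal-binding genes rose as well. *Mt2*, a metallothionein gene, went from 10.43, 10.65, 10.29 and 10.42 to 14.50, 14.29 and 14.49, by 3.98 (standard error 0.08), and *Mt1* rose by 3.11 (standard error 0.09). *Slc39a14*, the gene of a zinc importer, rose by 3.01 (standard error 0.10), and *Slc39a8*, of another, by 1.12 (standard error 0.19). *Mt3*, the brain metallothionein gene, differed by -0.06 (standard error 0.07, adjusted p = 0.524). Of 10 genes of this list 6 were higher and 0 lower.

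Chemokines draw leukocytes into tissue, CXC ligands of CXCR2 acting on neutrophils and CXCR3 ligands on activated lymphocytes. The promoters of 3 CXC genes that rose among the 15 highest are printed because each holds a match to the NF-kB consensus. *Cxcl9*, another CXC gene among them, is not printed. In the list of neutrophil-attracting CXC chemokines 2 of 6 genes with a promoter window held the consensus. In that of CXCR3 ligands and homeostatic CXC chemokines 1 of 7 did, against 6.2% of all 9887 genes with a window. Each line gives the 250 bases before the RefSeq transcription start in GRCm38.p6, 5′ to 3′ on the gene's strand. Capitals mark matches to the NF-kB consensus or to the core of the interferon-stimulated response element (ISRE), which is GAAA, any 2 bases and GAAA, on either strand. They lie at chr5:90903649-90903898 (plus strand), chr5:90890995-90891244 (plus strand) and chr5:92348890-92349139 (minus strand).
Cxcl2: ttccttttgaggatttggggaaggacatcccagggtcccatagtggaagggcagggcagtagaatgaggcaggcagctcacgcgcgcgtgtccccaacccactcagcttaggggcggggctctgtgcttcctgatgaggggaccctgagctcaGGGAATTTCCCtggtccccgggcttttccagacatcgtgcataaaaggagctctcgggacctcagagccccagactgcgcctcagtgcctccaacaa
Cxcl1: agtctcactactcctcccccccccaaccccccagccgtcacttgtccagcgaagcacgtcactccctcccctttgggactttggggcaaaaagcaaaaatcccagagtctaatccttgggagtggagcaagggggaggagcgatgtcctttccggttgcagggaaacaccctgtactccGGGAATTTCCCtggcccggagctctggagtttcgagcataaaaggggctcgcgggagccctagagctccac
Cxcl10: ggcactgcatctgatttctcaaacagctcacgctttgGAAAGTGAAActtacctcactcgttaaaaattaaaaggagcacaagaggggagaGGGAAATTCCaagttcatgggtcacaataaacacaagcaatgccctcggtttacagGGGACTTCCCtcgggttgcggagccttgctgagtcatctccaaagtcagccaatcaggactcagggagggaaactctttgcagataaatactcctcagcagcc
The *Cxcl2* and *Cxcl1* windows held the same 11 capital letters, which match the consensus on both strands, with the first base 97 and 71 bases before the start. In *Cxcl10* an ISRE core began 213 bases before the start, and matches to the NF-kB consensus began 159 and 103 bases before it. *Cxcl2* read 6.96, 7.02, 6.62 and 6.58 after saline and 11.76, 11.12 and 11.37 after LPS (log2 fold change 4.62, standard error 0.15). *Cxcl1* read 7.07, 7.00, 6.68 and 7.22 and then 11.20, 10.47 and 11.07 (3.92, standard error 0.20). *Cxcl10* read 7.57, 7.28, 7.08 and 7.48 and then 11.37, 10.81 and 11.37 (3.83, standard error 0.13). All 3 were lowest in replicate 2 among the LPS arrays and stayed above every saline array by more than 3 units.

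Of 7 genes in the list of neutrophil-attracting CXC chemokines 5 were higher and 1 lower. The receptor gene *Cxcr2* and the platelet gene *Pf4* were among those higher. Of 9 genes in the list of CXCR3 ligands and homeostatic CXC chemokines, which holds the receptor genes *Cxcr3* and *Cxcr4*, 6 were higher and 2 lower. *Cxcl5*, an epithelial neutrophil attractant, rose by 1.37 (standard error 0.23), to 7.38, 6.54 and 7.35 from arrays between 5.64 and 5.76. *Cxcl15*, the lung chemokine gene of resting epithelium, fell by 1.04 (standard error 0.14), from arrays between 13.32 and 13.73 to 12.71, 12.02 and 12.74. Of 19 CC chemokine and receptor genes 15 were higher and 1 lower, with a median of 1.04. *Ccl3* rose by 2.63 (standard error 0.21), *Ccl5* by 2.25 (standard error 0.09) and *Ccl2*, a monocyte attractant, by 1.61 (standard error 0.21). *Ccl4* rose by 0.52 (standard error 0.18, adjusted p = 0.0422), with arrays of 9.92, 9.57 and 9.23 that overlap the highest saline array of 9.27. Its call was lost without LPS replicate 1 or saline replicate 1, 2 or 4. Among receptors *Ccr1*, found on neutrophils and monocytes, rose by 2.58 (standard error 0.09), and *Ackr3*, a scavenging receptor gene, by 3.04 (standard error 0.14).

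Of 19 genes of IL-1 and IL-6 family cytokines, receptors and inhibitors 12 were higher and 3 lower, 11 and 2 without replicate 2. *Il6* went from 6.12, 5.80, 6.42 and 6.43 to 10.02, 9.42 and 10.26 (log2 fold change 3.71, standard error 0.36). *Il1b* went from 9.38, 9.57, 9.85 and 9.24 to 12.68, 12.40 and 12.30 (2.95, standard error 0.14). *Il1r2*, the decoy receptor gene for IL-1, had a larger rise, from 8.27, 7.91, 8.14 and 8.36 to 12.61, 12.12 and 12.34 (4.19, standard error 0.12). *Socs3*, the gene of an inhibitor of STAT3 signaling, rose by 2.81 (standard error 0.08). The 3 that were lower were *Lifr*, the receptor gene for LIF, *Il6st*, the shared receptor chain gp130, and *Il18*, with log2 fold changes of -1.87, -0.49 and -0.21. The call of *Il18* was lost without LPS replicate 1 or 2 or any 1 saline array, and after quantile normalization or centring on array medians. These 3 were named after their values were seen.

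Of 14 genes of LPS recognition and Toll-like signaling 9 were higher and 0 lower (10 and 0 without replicate 2). *Cd14* went from 10.32, 9.84, 10.11 and 10.15 to 13.31, 12.90 and 13.10, by 3.00 (standard error 0.11). *Tlr4* rose by 0.66 (standard error 0.11), from arrays between 7.43 and 7.84 to 8.51, 8.25 and 8.18. *Ly96*, which encodes MD-2, read 8.69 and 8.50 in LPS replicates 1 and 3 but 7.65 in replicate 2, inside the saline range of 7.44 to 7.74. Its log2 fold change was 0.66 with replicate 2 and 0.97 without, and the call was lost without LPS replicate 1. *Myd88*, the adaptor gene, rose by 1.28 (standard error 0.09) and *Map3k8*, a kinase gene of the pathway, by 1.83 (standard error 0.09). Of 17 genes of NF-kB subunits and its feedback inhibitors 15 were higher and 1 lower, with a median of 1.37. That median was 1.06 with the mean over all probe sets of each gene. *Ikbke*, a kinase gene of the pathway, went from 8.67, 8.63, 8.56 and 8.65 to 12.14, 11.76 and 11.63, by 3.22 (standard error 0.09). *Zc3h12a*, the gene of an RNase that degrades cytokine mRNA, rose by 2.21 (standard error 0.12), *Nfkbiz* by 1.82 (standard error 0.13) and *Tnip1* by 1.70 (standard error 0.08). *Nfkbia*, the inhibitor gene IkB alpha, rose by 0.71 (standard error 0.07). *Rela*, the p65 subunit gene, differed by 0.18 (adjusted p = 0.297), and by 0.37 without replicate 2 (adjusted p = 0.00136). Of genes in this list with a promoter window, 7 of 15 held the NF-kB consensus, against 6.2% of 9887 genes with a window of 250 bases before to 50 after a start.

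Of 26 type I interferon antiviral genes 25 were higher and 0 lower, and 26 were higher without replicate 2, with medians of 1.4 and 1.59. *Rsad2*, the gene of the antiviral enzyme viperin, went from 9.55, 9.52, 9.84 and 9.66 to 13.12, 12.65 and 12.90 (log2 fold change 3.25, standard error 0.12). *Irf7*, the transcription factor gene that amplifies interferon production, went from 9.11, 9.14, 10.06 and 9.18 to 12.35, 12.10 and 12.30 (2.88, standard error 0.18). *Zbp1*, a sensor of Z-form nucleic acid, went from 7.96, 7.97, 7.99 and 7.89 to 10.75, 10.71 and 10.71 (2.77, standard error 0.08), with its 3 LPS arrays nearly the same. *Ifit2* rose by 2.37 (standard error 0.23) and was lowest in replicate 2, at 10.00 against 10.83 and 11.20.

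Of 15 interferon-inducible GTPases and related interferon-gamma genes 12 were higher and 1 lower, with a median of 1.89 (11 and 1 without replicate 2). These GTPases attack vacuoles that hold microbes. *Gbp2* went from 10.72, 10.83, 10.11 and 10.29 to 13.29, 13.16 and 13.45, by 2.81 (standard error 0.13). *Gbp6* went from 8.03, 7.26, 6.58 and 6.43 to 11.41, 11.08 and 11.81, by 4.36 (standard error 0.28), and *Iigp1* from 11.32, 10.78, 10.65 and 10.43 to 13.51, 13.50 and 13.72. Saline replicate 1 was the highest control for *Gbp6*, *Iigp1* and *Igtp*. *Igtp* rose by 2.46 (standard error 0.15). *Ifng*, the interferon-gamma gene, was called only with replicate 2. Its saline arrays lay between 5.94 and 6.05 and its LPS arrays at 6.47, 7.38 and 6.68. The log2 fold change was 0.85 (standard error 0.30, adjusted p = 0.0377), and 0.58 without replicate 2 (adjusted p = 0.116). The call was also lost without any of the 4 saline arrays in turn.

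The promoters of *Rsad2* (chr12:26456453-26456702, minus strand), *Ifit1* (chr19:34640639-34640888, plus strand) and *Gbp2* (chr3:142620413-142620662, plus strand) are printed because each holds an ISRE core, in the same form as above. Capitals that read TTTC, 2 bases and TTTC are the core on the opposite strand.
Rsad2: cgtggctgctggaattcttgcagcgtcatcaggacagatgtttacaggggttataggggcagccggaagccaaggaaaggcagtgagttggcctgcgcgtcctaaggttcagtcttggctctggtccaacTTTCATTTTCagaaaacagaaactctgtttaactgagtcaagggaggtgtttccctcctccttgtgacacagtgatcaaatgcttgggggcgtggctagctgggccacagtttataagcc
Ifit1: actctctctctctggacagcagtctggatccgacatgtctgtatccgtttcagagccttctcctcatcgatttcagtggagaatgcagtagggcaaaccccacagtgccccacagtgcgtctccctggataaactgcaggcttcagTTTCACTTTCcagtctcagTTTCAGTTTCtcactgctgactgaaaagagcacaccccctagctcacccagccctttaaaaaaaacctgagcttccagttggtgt
Gbp2: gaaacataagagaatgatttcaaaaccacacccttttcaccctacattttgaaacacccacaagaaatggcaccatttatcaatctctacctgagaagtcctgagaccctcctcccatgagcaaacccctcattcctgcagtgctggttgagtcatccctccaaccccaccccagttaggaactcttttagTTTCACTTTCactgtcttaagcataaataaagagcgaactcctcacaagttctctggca
The core began 120 bases before the start in *Rsad2*, 104 and 85 bases before it in *Ifit1* and 59 bases before it in *Gbp2*. *Ifit1*, an antiviral gene that recognizes foreign RNA ends, went from 9.54, 9.49, 9.16 and 9.49 to 11.93, 11.60 and 11.81. Of 19 type I interferon genes with a promoter window 11 held the ISRE core (57.9%), and 6 of 11 GTPase-list genes did (54.5%), against 3.8% of all 9887. Among genes called higher the share was 6.9% of 1284, and among genes called lower 3.2% of 2222. The interferon-gamma activated sequence, TTC, any 3 bases and GAA, was in 8.4% of all windows, 11% of those called higher and 7.0% of those called lower. For the NF-kB consensus these shares were 6.2%, 8.6% and 6.4%, and 16.2% of 154 genes that were called and at least 3-fold higher. Matches of different motifs can share bases, and genes with several windows counted once.

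Of 14 genes of the immunoproteasome and MHC class I loading 11 were higher and 0 lower. *Psmb8*, a catalytic immunoproteasome subunit, rose by 1.37 (standard error 0.07), from arrays between 10.48 and 10.69 to 11.97, 11.88 and 12. *Psmb9* and *Psmb10*, the other catalytic subunits, rose by 0.70 and 0.86 (standard errors 0.07 and 0.08). *Tap1*, a peptide transporter gene, rose by 2.22 (standard error 0.14), *Tapbp* by 1.19 (standard error 0.10) and *Tap2* by 1.09 (standard error 0.08). Of 10 class II presentation genes 3 were higher and 5 lower, and a difference between the 2 lists was not tested. *H2-Eb1* went from 12.38, 12.30, 12.32 and 12.40 to 11.41, 11.41 and 11.86, a fall of 0.79 (standard error 0.11), and *H2-Aa* fell by 0.56 (standard error 0.11). *Cd80*, a costimulatory gene, rose by 0.53 (standard error 0.11).

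The constitutive proteasome, the complex that degrades tagged proteins in every cell, was higher in most subunits. Of 31 measured subunits 29 were higher and 0 lower, and 30 were higher without replicate 2, where the background is 13.1% and 19.0% of genes. Their median log2 fold change was 0.46, or 0.58 without replicate 2, and single values ran from 0.17 for *Psmc5* to 0.87 for *Psma7*. *Psmc5*, named after its value was seen, was not called with replicate 2 and was called without it, at 0.42. *Psma7* had a standard error of 0.07 and went from arrays between 10.52 and 10.60 to 11.34, 11.57 and 11.35. *Psmd14* rose by 0.85 (standard error 0.12) and *Psmb5* by 0.69 (standard error 0.06). *Psma1* read 10.17 and 10.16 in LPS replicates 1 and 3 and 9.46 in replicate 2, below the saline range of 9.49 to 9.53. Its call was lost without LPS replicate 1 or 3 or saline replicate 1 or 2, and with only the 2 groups in the fit.

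Of 20 neutrophil genes 18 were higher and 0 lower, with a median of 1.91. Their summed signal, on a log2 scale, was between 14.21 and 14.36 in the saline arrays and 16.68, 16.52 and 16.58 in the LPS arrays. *Ngp*, a secondary granule gene, went from 9.25, 9.05, 9.0 and 8.85 to 13.78, 13.67 and 13.56, by 4.63 (standard error 0.14). *S100a9* and *S100a8* encode the subunits of calprotectin, the main cytosolic protein of neutrophils. *S100a9* went from 10.54, 9.90, 10.04 and 9.90 to 14.02, 14.05 and 13.95, and *S100a8* from 10.99, 10.26, 10.63 and 10.33 to 14.04, 13.84 and 13.89. *Fpr2*, a receptor gene for formyl peptides, rose by 3.78 (standard error 0.08). Saline replicate 1 was the highest control for *Ngp*, *S100a9* and *S100a8*, still more than 2 log2 units below each LPS array. *Elane* and *Mpo*, genes of primary granule enzymes that bone marrow precursors transcribe, differed by 0.21 and 0.27 and were not called, and *Prtn3*, another such gene, rose by 0.41. These 3 were named after their values were seen.

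Genes of monocytes and macrophages gave 11 higher and 5 lower of 20. *Fcgr4*, an activating Fc receptor gene, went from 8.97, 8.87, 9.0 and 8.91 to 11.83, 11.73 and 11.58, by 2.78 (standard error 0.07). *Itgam*, an integrin gene that neutrophils and monocytes share, went from 7.04, 7.22, 6.77 and 7.11 to 11.06, 10.09 and 10.53. *Cd300lf* and *Fcgr3* rose by 2.69 and 2.03 (standard errors 0.12 and 0.09). *Csf1r*, the receptor gene that defines mononuclear phagocytes, differed by -0.18 (standard error 0.09, adjusted p = 0.132), and by -0.27 without LPS replicate 1 (adjusted p = 0.0299). Of 11 alveolar macrophage genes 4 were higher and 3 lower. *Siglecf* fell by 0.81 and *Itgax* by 0.59, while the scavenger receptor gene *Marco* rose by 1.36 (standard errors 0.11, 0.13 and 0.16). Of 12 B cell genes 0 were higher and 8 lower. *Cd79a*, part of the B cell receptor, went from 10.30, 10.14, 10.03 and 9.95 to 8.49, 8.80 and 8.46, a fall of 1.52 (standard error 0.12). *Cd79b* and *Ms4a1* fell by 1.29 and 1.35 (standard errors 0.13 and 0.22). T and NK genes gave 4 higher and 7 lower of 19. *Cd3e* differed by -0.04 (standard error 0.06, adjusted p = 0.657) and *Cd3g* fell by 0.65 (standard error 0.11). The cytotoxic granule genes *Gzmb* and *Gzma* rose by 1.80 and 0.85 (standard errors 0.20 and 0.17).

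**Figure D4:**
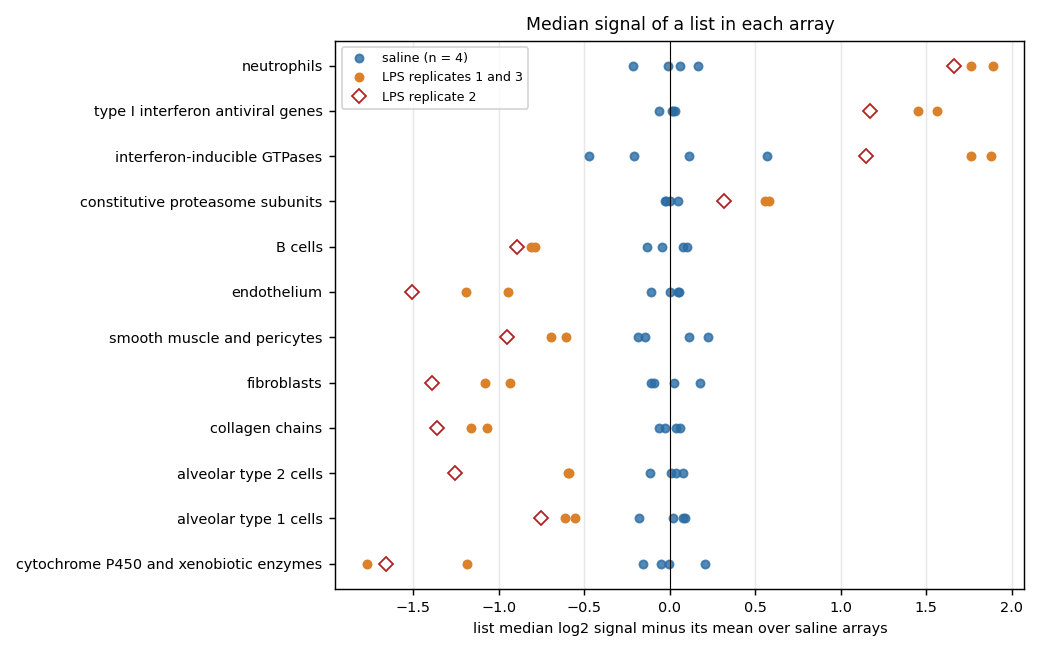
Median log2 signal of each of 12 lists in each array, minus the mean of that median over the saline arrays (blue, saline; orange, LPS replicates 1 and 3; open diamond, LPS replicate 2). Replicate 2 lies lowest of the LPS arrays in every list, rising or falling, except cytochrome P450 and xenobiotic enzymes, where replicate 1 does. It lies on the same side of the saline arrays as the other LPS arrays in all 12.

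Most endothelial genes fell. Of 31 genes 20 were lower and 4 higher (19 and 4 without replicate 2), with a median of -1.04, or -0.93 without it. Replicate 2 was the lowest LPS array for 25 of the 31. It was also the lowest for 28 of 31 constitutive proteasome genes and 48 of 52 oxidative phosphorylation genes. Of liver genes it was the lowest for 1 of 10. The share over all genes was not counted. *Tek*, the angiopoietin receptor gene that keeps vessels quiescent, went from 12.31, 12.55, 12.55 and 12.36 to 9.21, 8.85 and 9.97, a fall of 3.10 (standard error 0.20). *Calcrl*, the receptor gene for adrenomedullin, read 11.58, 11.59, 11.43 and 10.28 after saline and 8.36, 8.15 and 8.56 after LPS. Saline replicate 4 stood below the rest and above every LPS array. *Sox18*, an endothelial transcription factor gene, fell by 2.72 (standard error 0.15). *Kdr*, the VEGF receptor gene, fell by 1.34 (standard error 0.09), and *Pecam1*, a junctional adhesion gene, by 1.08 (standard error 0.11). *Cdh5*, which encodes VE-cadherin, read 11.45, 11.63, 11.58 and 11.66 and then 11.50, 11.09 and 11.58, so that only replicate 2 lay below the saline arrays (-0.19, standard error 0.10, adjusted p = 0.148). It was called without LPS replicate 3, at -0.28 (adjusted p = 0.0354). *Nos3*, the endothelial nitric oxide synthase gene, rose by 1.08 (standard error 0.15), from arrays between 8.65 and 8.86 to 10.03, 10.03 and 9.32. The other 3 that rose were *Lyve1*, *Cldn5* and *Robo4*, by 1.5, 0.85 and 0.39, named after their values were seen.

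**Figure D5:**
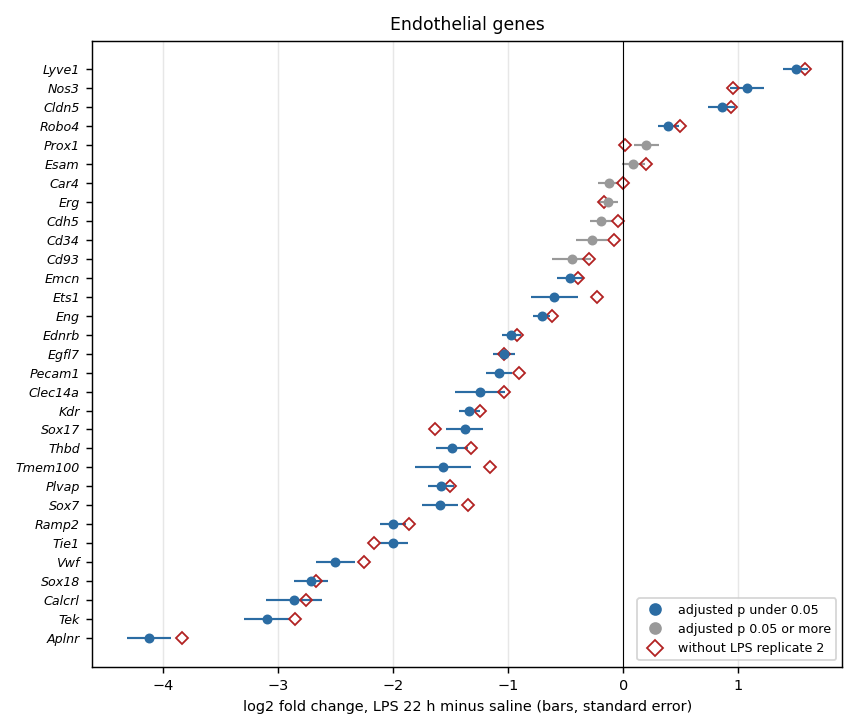
Log2 fold change after LPS for 31 endothelial genes, with standard errors (blue, limma adjusted p under 0.05; grey, not), and open diamonds for the value without LPS replicate 2. Values run from -4.12 for *Aplnr* to 1.5 for *Lyve1*, and *Cdh5* lies near 0 at -0.19.

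Of 16 vascular adhesion genes 8 were higher and 3 lower, 8 and 2 without replicate 2. *Selp*, the P-selectin gene, went from 8.61, 8.32, 8.13 and 8.88 to 11.33, 10.72 and 11.05, by 2.55 (standard error 0.16). *Sele*, the E-selectin gene, rose by 1.45 (standard error 0.18) and *Icam1* by 0.58 (standard error 0.06). *Icam2*, which resting endothelium carries, went from 11.93, 11.94, 11.90 and 11.91 to 9.88, 9.72 and 9.75, a fall of 2.14 (standard error 0.09). *Vcam1*, an adhesion gene of activated endothelium, differed by -0.38 and was not called, by -0.11 without replicate 2, and by -0.61 without replicate 3, where it was called. *Jam2*, a junctional adhesion gene of endothelium, rose by 0.85. *Vcam1* and *Jam2* were named after their values were seen.

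Of 24 genes of angiopoietin, VEGF and BMP signaling 14 were lower and 5 higher, with and without replicate 2. *Nrp1*, a VEGF co-receptor gene, went from 12.07, 11.96, 11.94 and 11.84 to 9.36, 8.41 and 9.70. *Bmp6*, a ligand gene of lung endothelium, fell by 2.58 (standard error 0.10), from arrays between 10.97 and 11.31 to 8.51, 8.61 and 8.65. *Tie1* fell by 2.0 (standard error 0.12) and *Angpt1*, the ligand gene of TEK, by 0.82 (standard error 0.17). For *Tie1* and *Angpt1* replicate 2 was the highest LPS array.

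Genes of nitric oxide, cyclic GMP and vascular tone gave 8 higher and 13 lower of 27. *Ace*, the angiotensin-converting enzyme gene, went from 12.65, 12.81, 13.10 and 13.13 to 10.38, 10.36 and 10.52, a fall of 2.50 (standard error 0.11). *Ramp3*, which switches the calcitonin receptor-like receptor toward adrenomedullin, rose by 2.64 (standard error 0.25), from arrays between 9.03 and 9.47 to 11.94, 11.81 and 11.95. *Nos2* read 8.47, 8.17, 7.75 and 8.31 after saline and 8.80, 8.19 and 8.48 after LPS. It differed by 0.32 (standard error 0.15, adjusted p = 0.133), and by 0.47 without replicate 2 (adjusted p = 0.0134). *Nos1* differed by 0.12 (adjusted p = 0.744) and by -0.33 without replicate 2 (adjusted p = 0.0342), since replicate 2 read 9.20 against 7.92 and 7.75. Of 15 genes of arginine transport and polyamine metabolism 7 were higher and 2 lower. *Odc1*, whose enzyme makes putrescine, went from 10.45, 10.48, 10.29 and 10.28 to 12.76, 12.29 and 12.56, and *Smox*, which encodes spermine oxidase, by 1.65 (standard error 0.12).

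Coagulation gave 6 higher and 4 lower of 20 genes. *F3*, the tissue factor gene that starts clotting, went from 8.07, 8.40, 8.12 and 8.28 to 10.66, 9.83 and 10.65, by 2.16 (standard error 0.17). *Plat*, the tissue plasminogen activator gene, went from 9.48, 9.72, 9.33 and 9.38 to 12.98, 12.53 and 12.87. *Procr*, the endothelial protein C receptor gene, rose by 3.16 (standard error 0.18), to 10.67, 9.85 and 9.80 from arrays between 6.78 and 7.11. *Thbd*, its partner thrombomodulin, fell by 1.49 (standard error 0.14), while the fall of *Vwf*, which encodes von Willebrand factor, was 2.50 (standard error 0.17). Of 14 complement genes 7 were higher and 2 lower, 10 and 2 without replicate 2. *Cfb*, the factor B gene, rose by 2.59 (standard error 0.09), and *C1qa* differed by -0.01 (adjusted p = 0.96).

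Most stromal genes fell. Of 23 fibroblast genes 19 were lower and 1 higher (18 and 2 without replicate 2), with a median of -1.22, or -0.96 without it. Of 18 collagen chains 14 were lower and 2 higher. *Col1a1*, a chain of fibrillar collagen I, went from 11.76, 11.80, 11.95 and 11.84 to 9.81, 9.48 and 9.62, a fall of 2.20 (standard error 0.13). *Col3a1* fell by 1.59 (standard error 0.16). *Col4a5*, a chain of epithelial basement membranes, went from 10.67, 10.51, 10.72 and 10.74 to 8.52, 7.08 and 8.69, and its log2 fold change was -2.57 with replicate 2 and -2.06 without. *Col4a1*, the common basement membrane chain, rose by 0.36 (standard error 0.09). *Fbln5* and *Limch1* fell by 2.27 and 2.47 (standard errors 0.10 and 0.09), and *Dcn*, the decorin gene, rose by 0.66 (standard error 0.08). *Pdgfra*, a receptor gene of lung fibroblasts, differed by 0.33 (adjusted p = 0.101), and by 0.49 without replicate 2 (adjusted p = 0.00506).

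Smooth muscle and pericytes gave 13 lower and 1 higher of 17 genes (14 and 2 without replicate 2). *Acta2*, the smooth muscle actin gene, went from 12.49, 12.21, 12.65 and 12.44 to 11.44, 11.37 and 11.30, a fall of 1.08 (standard error 0.09). *Myl9* and *Notch3* fell by 1.75 and 1.91 (standard errors 0.12 and 0.11). *Kcnj8*, a potassium channel gene of pericytes, rose by 1.63 (standard error 0.12), from arrays between 8.52 and 8.75 to 10.58, 9.87 and 10.29. Markers of atrial and cardiac muscle, which lines mouse pulmonary veins, fell as well. Of 22 such genes 14 were lower and 0 higher. Their summed signal was between 14.39 and 14.74 after saline and 13.99, 13.89 and 13.78 after LPS. *Actc1* fell by 1.73 (standard error 0.13) and *Myl7* by 1.09 (standard error 0.12). The part of the heart and vein tissue in the samples in the falls of muscle genes was not tested.

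Matrix-degrading enzymes and their inhibitors were mostly higher, 8 of 14, with 2 lower. *Timp1*, an inhibitor gene, went from 8.82, 8.70, 9.26 and 8.94 to 12.42, 12.17 and 12.14, by 3.32 (standard error 0.12). *Adamts4*, a proteoglycan-cleaving protease gene, rose by 3.05 (standard error 0.12). *Mmp8* and *Mmp9*, which neutrophils store in granules, rose by 3.05 and 1.93 (standard errors 0.11 and 0.12). Both are also members of the neutrophil list given above and entered its counts. The part of neutrophils in their rise was not tested.

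In alveolar epithelium 14 of 17 type 2 genes were lower and 2 higher (15 and 2 without replicate 2), with a median of -0.64. *Sftpb*, a surfactant gene needed for breathing, went from 13.79, 14.02, 13.91 and 14.08 to 13.07, 12.81 and 13.01, a fall of 0.98 (standard error 0.08). *Sftpc* and *Sftpa1* fell by 0.55 and 0.31 (standard error 0.06 for each). *Etv5*, a transcription factor gene that maintains type 2 cells, fell by 1.98 (standard error 0.15). *Slpi*, an antiprotease gene of epithelium and neutrophils, rose by 1.76 (standard error 0.10). Of 11 type 1 genes 6 were lower and 1 higher. *Ager*, the receptor gene that marks these cells, went from 13.07, 13.08, 13.01 and 13.12 to 12.37, 11.94 and 12.11, a fall of 0.93 (standard error 0.09). *Rtkn2* and *Emp2* fell by 1.52 and 1.04 (standard errors 0.16 and 0.08), while *Hopx* differed by -0.02 (standard error 0.06, adjusted p = 0.838).

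In airway epithelium, of 14 club cell genes 8 were lower and 2 higher. *Scgb1a1* differed by -0.04 (standard error 0.07, adjusted p = 0.732). *Scgb3a2*, another secretoglobin gene, fell by 0.76 (standard error 0.07), from arrays between 14.10 and 14.22 to 13.39, 13.39 and 13.41. *Cyp2f2*, the cytochrome gene of club cells, went from 14.48, 14.34, 14.29 and 14.37 to 12.68, 12.40 and 12.47. *Muc5b*, a gel-forming mucin gene, rose by 1.82 (standard error 0.15), from arrays between 9.58 and 10.26 to 11.96, 11.72 and 11.72. Ciliated cell genes gave 1 higher and 3 lower of 10. *Tppp3*, a tubulin polymerization gene, fell by 1.60 (standard error 0.10). Of 6 mesothelial genes 4 were lower and 0 higher, among them *Upk3b* and *Gpm6a*, by 1.21 and 2.14 (standard errors 0.10 and 0.17).

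Xenobiotic metabolism showed the lowest list median, -1.34, with 15 of 17 genes lower and 2 higher. *Cyp1a1*, the classical target of the aryl hydrocarbon receptor, went from 10.19, 9.80, 10.05 and 10.11 to 7.71, 7.48 and 7.84, a fall of 2.36 (standard error 0.09). *Ahr*, the gene of that receptor, went from 11.52, 11.47, 11.54 and 11.46 to 9.63, 8.82 and 9.92. *Fmo1* and *Ephx1*, a monooxygenase and an epoxide hydrolase gene, fell by 2.57 and 2.43 (standard errors 0.12 and 0.09). *Cyp1b1* and *Cyp2b10* were the members that rose, by 1.13 and 0.33 (standard errors 0.14 and 0.09), and the call of *Cyp2b10* was lost without LPS replicate 1 or 3. In antioxidant defense 13 of 24 genes were higher and 7 lower. *Sod2*, the mitochondrial superoxide dismutase gene, went from 10.75, 10.83, 10.96 and 10.63 to 13.04, 12.79 and 12.90. *Gsr* and *Hmox1* rose by 2.05 and 1.78 (standard errors 0.08 and 0.17).

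Glycolysis and hypoxia-induced genes gave 12 higher and 2 lower of 19. *Hif1a* went from 10.22, 9.83, 10.00 and 9.96 to 12.43, 11.76 and 12.27, by 2.15 (standard error 0.13). *Ndrg1*, a hypoxia-induced gene, rose by 2.26 (standard error 0.11), and *Hk2*, a hexokinase gene, by 1.32 (standard error 0.17). *Pdk4*, which restrains pyruvate oxidation, read 10.52 and 10.66 in LPS replicates 1 and 3 and 8.78 in replicate 2, against 7.55 to 8.47 after saline. Its log2 fold change was 1.86 with replicate 2 and 2.47 without. Of 18 genes of cholesterol and fatty acid synthesis 8 were lower and 0 higher (7 and 3 without replicate 2). *Scd2*, a fatty acid desaturase gene, fell by 2.42 (standard error 0.11) and *Fasn*, the fatty acid synthase gene, by 1.17 (standard error 0.11).

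Glucocorticoid-responsive genes gave 11 higher and 3 lower of 15. *Fkbp5* went from 9.91, 9.78, 10.01 and 9.88 to 12.15, 12.01 and 12.19, by 2.22 (standard error 0.08), and *Sgk1* rose by 1.18 (standard error 0.16), while *Tsc22d3* differed by 0.11 (adjusted p = 0.451). *Dbp* and *Tef* encode clock-controlled factors that activate D-box elements. *Dbp* went from 9.89, 10.60, 10.51 and 10.46 to 8.52, 9.27 and 8.82, and *Tef* fell by 1.25 (standard error 0.10). *Nfil3*, which represses the same elements, rose by 2.09 (standard error 0.20). Of 16 clock genes 3 were higher and 7 lower, 5 and 8 without replicate 2. In the unfolded protein response 14 of 24 genes were higher and 0 lower. *Hspa5*, the chaperone gene BiP, rose by 0.74 (standard error 0.13), *Atf4* by 0.92 (standard error 0.08) and *Manf* by 1.17 (standard error 0.10). Of 22 AP-1, C/EBP, KLF and STAT genes 11 were higher and 4 lower. *Cebpb* and *Cebpd* rose by 1.66 and 1.95 (standard errors 0.06 and 0.14), and *Jun* differed by -0.03 (adjusted p = 0.877). Of 35 cell cycle genes 12 were higher and 2 lower. *Cdkn1a*, the cell cycle inhibitor gene p21, rose by 2.04 (standard error 0.10), and *Ccnd1*, the cyclin D1 gene, fell by 0.75 (standard error 0.07). *Mki67*, a proliferation marker, differed by 0.29 (adjusted p = 0.133), and by 0.40 without replicate 2 (adjusted p = 0.0293).

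Lists of basal functions moved little, and some of their counts turned on replicate 2. Of 52 oxidative phosphorylation genes 3 were higher and 12 lower, 10 and 12 without replicate 2, with medians of -0.12 and -0.04. *Cycs*, the cytochrome c gene, rose by 0.69 (standard error 0.07) and *Sdha* fell by 0.44 (standard error 0.10). Of 32 cytosolic ribosomal protein genes 1 was higher and 6 lower, 3 and 5 without replicate 2. Of 16 heat shock and chaperone genes 2 were higher and 1 lower, 5 and 1 without replicate 2. Of 9 platelet genes 2 were higher and 0 lower, and of 10 erythroid genes 1 was higher and 2 lower. Genes of skeletal muscle, squamous epithelium and liver, tissues other than lung, gave 0 higher members of 16, 12 and 10 and 1, 2 and 1 lower (3, 3 and 1 without replicate 2). Replicate 2 was the highest LPS array for 12, 7 and 9 of them. *Adipoq*, an adipocyte gene, fell by 2.69 (standard error 0.25), from 8.91, 9.23, 9.89 and 9.92 to 6.80, 6.56 and 7.04, beside 2 higher and 4 lower of 10 adipose genes.

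Some genes were read differently by replicate 2 than by the other LPS arrays. The largest gaps downward were at *Tmem123*, *C1d*, *Styx* and *Grsf1*. *Tmem123* read 9.88 and 10.15 in replicates 1 and 3 and 7.69 in replicate 2, against 9.74 to 10.01 after saline, and it was called without LPS replicate 3, at -1.15 (adjusted p = 0.0239). *C1d* read 9.73, 7.64 and 10.04 against 9.08 to 9.39 after saline, with replicate 2 below and the others above the saline arrays. Its log2 fold change was -0.06 with replicate 2 (adjusted p = 0.921) and 0.69 without (adjusted p = 6.35e-05). The largest gaps upward were at *Klk1b5*, *Lce1d*, *Hspa1l* and *Vat1*. *Klk1b5*, a kallikrein gene of glands, read 9.52 in replicate 2 and 6.19 and 6.30 in the others. In the saline arrays it read 6.19, 6.44, 7.80 and 6.26. *Lce1d*, a gene of cornified skin, read 9.42 against 6.99 and 7.01, and 6.70, 6.75, 8.0 and 6.97 after saline. Saline replicate 3 was the highest control for *Klk1b5*, *Lce1d*, *Hspa1l* and *Vat1*. They were not called with replicate 2, with limma adjusted p of 0.442, 0.27, 0.35 and 0.566.

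Calls that turned on replicate 2 numbered 743 probe sets called only with it, 187 higher and 556 lower, and 2635 called only without it, 1706 higher and 929 lower. By size, the leading genes called only with it were *Ifng*, *Mospd2*, *Nptn*, *Nfatc2ip* and *Rev3l*. Each of these calls was lost also without at least 1 saline array. *Nptn*, the neuroplastin gene, read 10.75 to 11.19 after saline and 10.77, 9.42 and 10.76 after LPS. The leading genes called only without it were *Akr1c14*, *Fgl2*, *Snhg5*, *Helz2* and *Ampd2*. *Helz2*, an interferon-induced helicase gene, read 9.67 to 9.86 after saline and 10.81, 9.55 and 10.77 after LPS. *Fgl2*, a gene of a secreted fibrinogen-like protein, read 8.18 to 8.57 and then 9.44, 7.99 and 9.79. In each of the 5, replicates 1 and 3 lay above all saline arrays and replicate 2 below their highest.

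The 5 largest rises and falls were also set against wild-type lungs 7 h after LPS, for which no saline array of that time was used. In that comparison 3.15% of probe sets were higher at 22 h and 7.68% lower. *Saa3*, *Cxcl9* and *Saa1* had means of 14.13, 13.56 and 11.90 at 7 h and 14.22, 13.10 and 11.93 at 22 h, which differed by no more than 0.46 and were not called. *Dio2* was at 9.19 ± 0.16 (SD, n = 3) at 7 h and 12.39 ± 0.35 (SD, n = 3) at 22 h, a difference of 3.20 (standard error 0.23, limma adjusted p = 6.99e-07). *Ngp* was higher at 22 h by 0.69 (standard error 0.15). *Aplnr* was at 7.61 ± 0.12 (SD, n = 3) at 7 h and 7.59 ± 0.50 (SD, n = 3) at 22 h, so that its low level was present at the earlier time. *Ogn*, *Itga8*, *Car3* and *Cavin2* were lower at 22 h than at 7 h, by 2.59, 1.64, 2.23 and 1.13 log2 units (standard errors 0.28, 0.19, 0.29 and 0.19). Without replicate 2 these differences were -2.07, -1.39, -2.42 and -0.86, all still called.

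The same 10 genes were set against NOS2-/- lungs 22 h after LPS, where 9.63% of probe sets were higher in NOS2-/- mice and 6.81% lower. The difference takes in no saline arrays. A genotype difference present before LPS therefore cannot be told apart from a different response to LPS. The 5 rises did not differ at the threshold, with differences between -0.66 for *Dio2* (standard error 0.23, adjusted p = 0.0692) and 0.11 for *Ngp*. Without replicate 2 *Dio2* and *Saa3* were called lower in NOS2-/- mice, by -0.81 and -0.27 (adjusted p = 0.0149 and 0.0282). *Ogn* was at 10.80 ± 0.04 (SD, n = 3) in NOS2-/- mice and 7.93 ± 0.89 (SD, n = 3) in wild-type mice, a difference of 2.87 (standard error 0.28, limma adjusted p = 1.22e-05). *Car3*, *Itga8* and *Cavin2* were higher in NOS2-/- mice by 2.75, 1.81 and 1.35 (standard errors 0.29, 0.19 and 0.19), and remained so without replicate 2, by 2.94, 1.55 and 1.08. *Aplnr* differed by 0.54 (standard error 0.21, adjusted p = 0.0998). Both comparisons use the same 3 wild-type LPS arrays at 22 h as the comparison with saline that chose these 10 genes.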

How the data were processed

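Each sample of whole-lung RNA had 1 Affymetrix MOE430A array. The authors processed the scans with the affy package of R, and the deposited values are on a log2 scale, already background-corrected and normalized. Its version is, like the method chosen within it, not given in the sources used here. Of 22690 probe sets 64 controls were left out and 22626 tested, of which 20380 name 1 gene, 691 several and 1555 none in the platform annotation. Where several probe sets name a gene, that of the highest mean signal in the 17 arrays stood for it, which left 12393 genes.

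One mean per group was fitted to the 17 arrays with limma 3.58.1 in R 4.3.3, with empirical Bayes moderation and Benjamini-Hochberg adjustment over all probe sets, and an adjusted p under 0.05 was called. Scripts were tested on simulated data. Groups came from the labels for genotype, treatment and time. Precision is limited by how many arrays there are, since arrays have no sequencing depth. Labels give no batch.

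Named genes were the 15 largest rises and falls that were called and whose groups did not overlap. The first 3 and the 4 most changed measured genes of each list were named too. So were the 10 that LPS replicate 2 read lowest and highest, and the 5 largest called only with or only without it. The text gives a part of these. Members and lists were chosen with earlier results of these data known. Promoters, from RefSeq (GRCm38.p6), were matched by symbol for 9887 genes. Alternatives were other scaling, centring, filters, thresholds, array weights, array sets, a replicate block and each array left out. Some genes that the study names are not reported here.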

Additional observations from a re-analysis of the deposited data

Results flagged for a closer look

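Within the 4 saline arrays, 1 array stood apart from the other 3 by Dixon's ratio at its 95% critical value in 16 of 270 tested groups of values, and chance gives about 1 in 20. Saline replicate 3 was the array in 8 of the 16. It read 10.06 for *Irf7* (others 9.11 to 9.18), 9.16 for *Ifit1* (9.49 to 9.54), 7.80 for *Klk1b5* (6.19 to 6.44) and 13.29 for *Nfkbia* (13.13 to 13.16). It also read 8.86 for *Nos3* (8.65 to 8.69), 9.57 for *Rev3l* (9.35 to 9.38), 9.08 for *Slc39a14* (8.87 to 8.90) and 9.48 for *Upk3b* (9.75 to 9.81).

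Saline replicate 4 read 10.28 for *Calcrl* (others 11.43 to 11.59), 12.25 for *Scd2* (12.52 to 12.56) and 9.74 for *Tmem123* (9.99 to 10.01). Saline replicate 1 read 9.29 for *Slfn4* (8.4 to 8.53), 14.89 for *Scgb1a1* (14.74 to 14.76) and 11.53 for *Tppp3* (11.91 to 11.97). Saline replicate 2 read 11.83 for *Fasn* (11.67 to 11.68) and 10.25 for *C1qa* (10.07 to 10.10).

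The level after LPS differed between 22 h and 7 h for 6 of the 10 genes compared, as 22 h minus 7 h on the log2 scale. The difference was 3.20 for *Dio2*, 0.69 for *Ngp*, -2.59 for *Ogn*, -1.64 for *Itga8*, -2.23 for *Car3* and -1.13 for *Cavin2*. The probe set for the middle of 18S ribosomal RNA, a control outside the tested ones, read 7.67 in LPS replicate 2 and 6.35 to 6.77 in the other 6 arrays.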

How the results depend on the processing

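Against saline, 7427 probe sets were called, 2895 higher and 4532 lower. With only the 2 groups in the fit 4741 were called (1893 and 2848), with 1 probe set per gene 4490 (1651 and 2839), and with a 2-fold minimum 1344 (622 and 722). Leaving out 1 array at a time gave 6666 to 9319 calls, 2570 to 4414 higher and 4033 to 4905 lower, with the most rises without LPS replicate 2. The fold rule at 2-fold and 0.5-fold held 622 rises and 722 falls, and with 1 array left out 257 to 343 rises and 129 to 199 falls at the original folds.

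Against 7 h, 2451 probe sets were called, 467 with only the 2 groups, 1551 with 1 probe set per gene, 1257 at an adjusted p under 0.01 and 252 with a 2-fold minimum. Leaving out 1 array gave 1451 (without LPS 7 h replicate 2) to 4098 (without LPS 22 h replicate 3). NOS2-/- against wild type gave 3720, then 918, 2338, 1907 and 273 under the same changes, and 2301 with only arrays taken at 22 h. Leaving out 1 array gave 2323 (without NOS2-/- LPS 22 h replicate 1) to 6020 (without wild-type LPS 22 h replicate 2). Fewer samples or features entered the first 2 of these settings, and otherwise the cause was not tested.

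Whether the replicate numbers pair the samples could not be told. Deviations of same-numbered LPS and saline arrays from their group means correlated at 0.21, -0.35 and -0.38. LPS replicate 1 correlated better with saline replicate 2 (0.33). LPS replicates 1 and 3 had similar correlations with each saline array, and replicate 2 had the opposite sign. Replicate 2 thus set the deviations of the LPS group, and this check cannot show or exclude pairing. With a replicate block 6499, 2099 and 3209 probe sets were called in the 3 comparisons.

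Of 185 named genes called against saline, 11 lost the call under at least 1 setting, and 0 changed direction under any. Changes of direction were counted only for these called genes. Some named genes that were not called changed sign without LPS replicate 2, among them *Nos1*, *C1d*, *Jun*, *C1qa* and *Mt3*. The 11 that lost the call were *Ccl4*, *Col4a1*, *Cyp2b10*, *Ifng*, *Il18*, *Ly96*, *Mospd2*, *Nfatc2ip*, *Nptn*, *Psma1* and *Rev3l*, with *Col4a1* lost in the fit of only the 2 groups. With 3 and 4 arrays and a replicate that stands apart, changes of small size are not resolved, and how array quality bears on them was not tested.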

Other observations

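The hybridization controls bioB and bioC are spiked into each sample and carry no lung RNA. In saline replicate 4 bioB read 8.75 and bioC 9.39, against 7.83 to 7.91 and 8.18 to 8.44 in saline replicates 1 to 3. The NOS2-/- arrays lay between 8.25 and 8.70 for bioB and between 8.71 and 9.18 for bioC.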
